A study of Homo sapiens with 10 samples.

Results

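Genes of the unfolded protein response and of its ATF4 branch were followed in T47D breast cancer cells that carried SUMOylation-deficient PR-A K388R, WT PR-A or no progesterone receptor (PR). Members were taken from a list of 36 genes by symbol, and 29 of them, with 45 probe sets, could be matched among the 8904 genes of the expression table. A gene with several probe sets was represented by the one with the highest mean over all arrays. HSP90B1, PDIA4, PDIA5, GARS1, MARS1, EIF4EBP1 and VLDLR had no matched probe set and were not analysed here.

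RNA from 5 groups was hybridised to Affymetrix U133 Plus 2 arrays, with 2 arrays per group. PR-A K388R cells had received the synthetic progestin R5020 (10 nM, 24 h) or ethanol vehicle, WT PR-A cells had received the same, and parental PR-negative T47D-Y cells had received vehicle. T47D-Y cells given R5020 are not analysed here, so a response without PR could not be set beside those of the PR-A lines. Both PR-A lines were stable transfectants of the cloned T47D-Y line, and T47D is a luminal breast cancer cell line. Whether each PR-A line is 1 clone is not given in the sources used here. The labels give DMEM with charcoal-stripped serum as the medium of every group, while the methods give MEM with nonessential amino acids. The labels number the arrays of a group without saying that they came from separate cultures. P-values rest on the spread between arrays of the same group, pooled over the 5 groups and, in limma, moderated over all probe sets. That spread may be technical, and the number of arrays limits the precision.

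The endoplasmic reticulum (ER) folds proteins that enter the secretory pathway, and unfolded proteins in its lumen activate sensors in its membrane. IRE1 splices XBP1 mRNA, ATF6 is released from the membrane by cleavage, and PERK phosphorylates eIF2, which slows translation in general but favours translation of ATF4. XBP1 and ATF6 drive genes of ER chaperones, translocation and degradation of misfolded proteins. ATF4 drives genes of amino acid synthesis and uptake and of tRNA charging, and it is also reached by kinases that sense amino acid shortage. Secretory cells such as luminal breast epithelium depend on this system. The arrays measured total mRNA, so neither XBP1 splicing nor ATF6 cleavage nor ATF4 translation was seen. In RNA from whole cultures, fewer cells expressing a gene and less RNA per cell cannot be told apart.

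Promoter windows of the members were read from RefSeq (GRCh38.p14, 250 bases before to 50 after the annotated start), and 28 of the 29 members had one. These windows are shown because each motif below is a textbook element either of ATF4 targets or of the genes driven by XBP1 and ATF6. The motifs do not tell XBP1 and ATF6 apart. The ATF4 element (CARE, TGATGNAAN) was looked for on both strands and was found in 5 of 28 members (17.9%). It was found in 3.67% of 27305 promoters and in 2.59% of the 6908 whose gene had a probe set. The 5 members were ASNS, ATF3, AARS1, NARS1 and TARS1. The ER stress element (ERSE, CCAAT and CCACG with 9 free bases between them) was present in CALR, CANX and XBP1 (10.7%). It was present in 0.0806% of all promoters and in 0.0724% of those whose gene had a probe set. HYOU1 held the core of the unfolded protein response element (UPRE core, TGACGTGG) and 2 copies of ERSE-II (ATTGG and CCACG with 1 free base between them). The first copy overlapped the UPRE core. The UPRE core was in 0.795% of all promoters and 1.04% of those whose gene had a probe set, and ERSE-II in 0.0549% and 0.145%. Members were listed as genes of these pathways, so the motif shares are a description and not a test. None of the 4 motifs was found in the windows of MANF, DNAJB9, ATF4, TRIB3, STC2 or DDIT4. Each sequence runs 5′ to 3′ along the gene, ends at the base before the start used for its window and has the motif in capitals. For ASNS and CANX this start lies inside the span of the gene and not at its outer end. The motif stands on the opposite strand in AARS1 and CALR and, for ERSE-II, in HYOU1.
ASNS, chr7:97872409-97872508, minus strand: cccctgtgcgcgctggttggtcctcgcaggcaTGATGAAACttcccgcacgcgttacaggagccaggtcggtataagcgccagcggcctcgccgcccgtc
ATF3, chr1:212565207-212565406, plus strand: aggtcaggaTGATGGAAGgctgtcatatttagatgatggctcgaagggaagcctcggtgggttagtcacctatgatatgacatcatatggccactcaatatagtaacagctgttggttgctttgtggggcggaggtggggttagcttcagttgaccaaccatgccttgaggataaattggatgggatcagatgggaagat
AARS1, chr16:70289507-70289706, minus strand: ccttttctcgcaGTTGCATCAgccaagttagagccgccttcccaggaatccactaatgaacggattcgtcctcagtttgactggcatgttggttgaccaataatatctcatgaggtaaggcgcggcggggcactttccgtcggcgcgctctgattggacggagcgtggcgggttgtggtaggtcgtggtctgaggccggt
HYOU1, chr11:119057206-119057405, minus strand: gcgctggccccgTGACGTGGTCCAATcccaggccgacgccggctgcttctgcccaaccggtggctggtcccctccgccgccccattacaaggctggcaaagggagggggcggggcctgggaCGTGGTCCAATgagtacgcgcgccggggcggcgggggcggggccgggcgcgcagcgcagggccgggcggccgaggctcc
CALR, chr19:12938369-12938608, plus strand: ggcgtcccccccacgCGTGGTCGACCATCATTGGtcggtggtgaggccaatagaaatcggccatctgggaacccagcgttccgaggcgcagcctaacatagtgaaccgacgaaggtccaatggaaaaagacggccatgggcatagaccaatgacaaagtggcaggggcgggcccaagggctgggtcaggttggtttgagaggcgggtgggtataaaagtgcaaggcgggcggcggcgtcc
CANX, chr5:179698769-179698928, plus strand: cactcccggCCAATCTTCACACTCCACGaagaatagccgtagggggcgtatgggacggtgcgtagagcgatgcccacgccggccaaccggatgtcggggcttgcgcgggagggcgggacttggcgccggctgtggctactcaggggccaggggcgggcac
XBP1, chr22:28800570-28800649, minus strand: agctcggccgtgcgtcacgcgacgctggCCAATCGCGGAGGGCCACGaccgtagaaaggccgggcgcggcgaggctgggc

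A match describes the letters of the window and says nothing of binding. Among the printed genes, ASNS rose under R5020 in WT PR-A cells, while ATF3, AARS1, HYOU1, CALR, CANX and XBP1 did not pass the thresholds there.

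R5020 raised a set of these genes in WT PR-A cells. MANF, DNAJB9, ATF4, TRIB3, ASNS, STC2 and DDIT4 rose by 1.65-fold to 3.84-fold, and no member fell. In PR-A K388R cells none of the 29 members passed the thresholds, with DDIT4 closest. A gene was called at an adjusted p under 0.05 (limma, Benjamini-Hochberg over all 16376 probe sets) and a change of at least 1.5-fold. In WT PR-A cells 7 of 29 members (24.1%) were called higher, against a background of 4.45% of all genes called higher and 3.66% called lower. The members were chosen with earlier results of these data known, so their shares beside the background are a description and not a test. In PR-A K388R cells the background was 1.45% of all genes called higher and 0.595% called lower. At an unadjusted p under 0.05 in limma, 5 members were higher and 1 was lower in PR-A K388R cells, where 9.74% of all genes were higher and 6.79% lower at that threshold. Unmoderated analysis of variance contrasts called 0 members in PR-A K388R cells and 5 in WT PR-A cells, where DDIT4 (adjusted p = 0.051) and TRIB3 (adjusted p = 0.11) were lost.

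The sign of the changes was lopsided in WT PR-A cells and nearer to that of all genes in PR-A K388R cells. In PR-A K388R cells 20 of 29 members had a positive log2 change (69% against 51.7% of all genes), with a median of 0.08 against 0.01 for all genes. In WT PR-A cells 27 of 29, the 7 called members among them, were positive (93.1% against 46% of all genes), with a median of 0.36 against -0.02. The mean log2 level of the 29 members was 9.98 and 9.95 on the R5020 arrays of PR-A K388R cells, against 9.85 and 9.84 on their vehicle arrays. It was 10.28 on both R5020 arrays of WT PR-A cells, against 9.78 and 9.88 on their vehicle arrays, and 9.75 and 9.69 in T47D-Y cells. R5020-treated WT PR-A cells held the highest mean of the 5 groups. They were the group with the highest level for 18 of 29 members (62.1%), against 18.1% of all genes. By limma's F test (adjusted p under 0.05) with group means spanning at least 1.5-fold, 14 of 29 members varied among the 5 groups, against a background of 24.2% of all genes.

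The arrays were alike in scale, with medians of 4.59 to 4.69, and correlated more closely within groups (r of 0.996 to 0.997) than between them (0.977 to 0.993). Luminal breast markers had array means of 11.4 to 12.2 over 5 genes, lowest in R5020-treated WT PR-A cells. With R5020 all 5 had a negative change in both lines, with a median of -0.05 in PR-A K388R cells and -0.47 in WT PR-A cells, and none reached the thresholds. At an unadjusted p under 0.05 in limma, 1 was lower in PR-A K388R cells and 3 in WT PR-A cells, and the unmoderated contrasts were not run on these markers. ESR1, the estrogen receptor, measured 9.12 and 8.76 in R5020-treated PR-A K388R cells, against 9.53 and 9.17 with vehicle. It measured 7.73 and 7.90 in R5020-treated WT PR-A cells, against 8.34 and 8.52 with vehicle, and 9.74 and 10.11 in T47D-Y cells. ESR1 and KRT19 were called lower in vehicle-treated WT PR-A cells than in T47D-Y cells (2.83-fold and 1.85-fold), where 4.14% of all genes were called lower. The other 3 luminal markers were not called there. Of the 5, 3 had a negative and 2 a positive change, the highest being 0.35. The 4 leukocyte markers had array means of 3.74 to 3.95, between 2.58 for PTPRC and 5.77 for CD3E. The 6 fibroblast markers had array means of 4.58 to 5.11, with LUM at 2.34 to 2.62 and COL1A1 at 6.11 to 9.59. COL1A1 fell with R5020 in both lines (-1.11 in PR-A K388R cells and -1.02 in WT PR-A cells). Among vehicle-treated cells it was lower in PR-A K388R than in WT PR-A cells (-1.90). The part of these markers in the results was not tested.

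**Figure D1:**
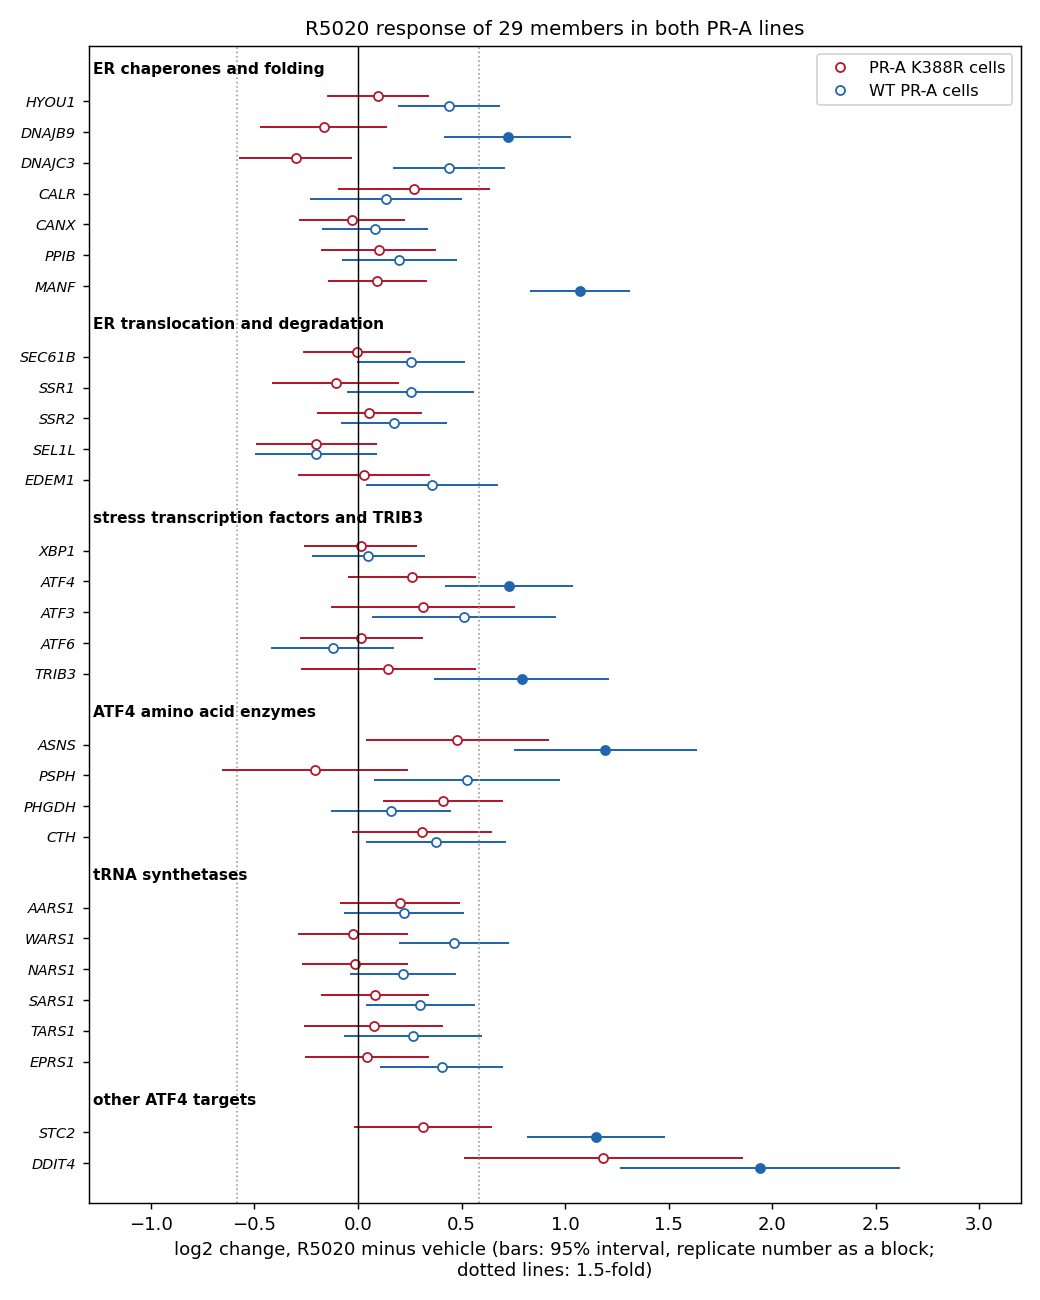
Log2 change with R5020 (R5020 minus vehicle) of each of the 29 members in PR-A K388R and WT PR-A cells, ordered by role. Filled points were called, bars are 95% intervals with the replicate number fitted as a block, and dotted lines mark 1.5-fold. Only WT PR-A cells have filled points, 7 in all.

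Among the ER chaperones and folding factors, MANF and DNAJB9 rose in WT PR-A cells and the other 5 of the 7 measured members were not called. MANF (chr3:51385291-51389397) encodes an ER-resident and secreted protein that binds the chaperone BiP and is induced by ER stress. Its log2 values were 10.39 and 10.33 in R5020-treated PR-A K388R cells, against 10.23 and 10.31 with vehicle. In WT PR-A cells they were 11.19 and 11.15 with R5020, against 10.11 and 10.09 with vehicle, and T47D-Y cells had 9.98 and 10.02. Both R5020 arrays of WT PR-A cells lay above all the other arrays. The log2 change was 0.09 in PR-A K388R cells (SE 0.08, limma adjusted p = 0.67) and 1.07 in WT PR-A cells (SE 0.08, 2.10-fold, limma adjusted p = 4.2e-05).

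DNAJB9 (chr7:108569874-108574850) encodes a J-domain co-chaperone of BiP in the ER lumen. It measured 8.68 and 8.71 in R5020-treated PR-A K388R cells, against 8.93 and 8.80 with vehicle. WT PR-A cells had 9.91 and 9.89 with R5020, against 9.02 and 9.33 with vehicle, and T47D-Y cells had 8.48 and 8.29. The R5020 arrays lay below the vehicle arrays in PR-A K388R cells and above them in WT PR-A cells. The change was -0.17 (SE 0.12, limma adjusted p = 0.58) in PR-A K388R cells and 0.72 (SE 0.12, 1.65-fold, limma adjusted p = 0.0033) in WT PR-A cells. Without the first WT PR-A vehicle array the change was 0.57, below 1.5-fold. Of the other 2 DNAJB9 probe sets, 1 had a change of 0.58 in WT PR-A cells and also stayed just below 1.5-fold.

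HYOU1 is an Hsp70-family nucleotide exchange factor for BiP and the carrier of the UPRE core and ERSE-II matches printed above. It changed by 0.10 in PR-A K388R cells and by 0.44 in WT PR-A cells (limma adjusted p = 0.0086, or 0.034 with the replicate block, below 1.5-fold). DNAJC3, another J-domain co-chaperone of the ER lumen, measured 9.49 and 9.71 in R5020-treated PR-A K388R cells, against 9.96 and 9.84 with vehicle. In WT PR-A cells it measured 10.36 and 10.40 with R5020, against 9.95 and 9.93 with vehicle. The 2 lines thus differed in sign, at -0.30 in PR-A K388R cells (limma adjusted p = 0.18) and 0.44 in WT PR-A cells (limma adjusted p = 0.018, below 1.5-fold). With the replicate block the adjusted p in WT PR-A cells was 0.052. The lectin chaperones CALR and CANX, which fold glycoproteins, changed by 0.27 and -0.03 in PR-A K388R cells and by 0.14 and 0.08 in WT PR-A cells. PPIB, a prolyl isomerase of the ER, changed by 0.10 in PR-A K388R cells and 0.20 in WT PR-A cells. CALR and CANX, the members of this group with an ERSE match, thus had changes below that of HYOU1 in WT PR-A cells. The median change of the group was 0.09 in PR-A K388R cells and 0.44 in WT PR-A cells.

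None of the 5 measured genes of ER translocation and degradation was called in either line, and limma gave an unadjusted p under 0.05 for 0 of them in PR-A K388R cells (9.74% of all genes higher and 6.79% lower) and for 2, both higher, in WT PR-A cells (12.1% of all genes higher and 14% lower). The unmoderated contrasts called 0 as well. The group comprises SEC61B, a subunit of the translocation channel, SSR1 and SSR2, subunits of the translocon-associated complex, SEL1L, the adaptor of the HRD1 ubiquitin ligase, and EDEM1, which directs misfolded glycoproteins to degradation. Its median change was -0.00 in PR-A K388R cells and 0.25 in WT PR-A cells. SEL1L changed by -0.20 in both lines and was 1 of the 2 members with a negative change in WT PR-A cells, the other being ATF6.

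Of the transcription factors and their regulator TRIB3, ATF4 and TRIB3 rose in WT PR-A cells, and XBP1, ATF3 and ATF6 were not called. ATF4 (chr22:39520559-39522686) measured 11.33 and 11.42 in R5020-treated PR-A K388R cells, against 10.97 and 11.26 with vehicle. WT PR-A cells had 12.05 and 11.88 with R5020, against 11.24 and 11.23 with vehicle, and T47D-Y cells had 11.15 and 10.95. The R5020 arrays did not overlap the vehicle arrays in either line, with a wider gap in WT PR-A cells. The change was 0.26 in PR-A K388R cells (SE 0.12, limma adjusted p = 0.34) and 0.73 in WT PR-A cells (SE 0.12, 1.66-fold, limma adjusted p = 0.0033).

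TRIB3 (chr20:380760-397559), an ATF4-induced pseudokinase that restrains ATF4, measured 8.55 and 8.05 in R5020-treated PR-A K388R cells, against 8.13 and 8.18 with vehicle, which overlapped. WT PR-A cells had 9.19 and 9.39 with R5020, against 8.30 and 8.70 with vehicle. The change was 0.15 in PR-A K388R cells (limma adjusted p = 0.77) and 0.79 in WT PR-A cells (SE 0.18, 1.73-fold, limma adjusted p = 0.017). The call in WT PR-A cells was lost without the first vehicle array (0.59, adjusted p = 0.13) or the second R5020 array (0.69, adjusted p = 0.095). ATF3, a stress-induced factor downstream of ATF4 with a CARE match, changed by 0.31 in PR-A K388R cells and 0.51 in WT PR-A cells (limma adjusted p = 0.13). XBP1 and ATF6 changed by 0.01 and 0.02 in PR-A K388R cells and by 0.05 and -0.12 in WT PR-A cells. The 2 factors that feed the chaperone branch therefore had changes near 0 at the mRNA level, and the array does not report their activation.

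ASNS, which makes asparagine, was the called member among the 4 ATF4-driven amino acid enzymes. ASNS (chr7:97851677-97928441) measured 9.82 and 9.85 in R5020-treated PR-A K388R cells, against 9.23 and 9.49 with vehicle. WT PR-A cells had 10.80 and 10.63 with R5020, against 9.32 and 9.73 with vehicle, and T47D-Y cells had 9.04 and 8.52. The treated arrays lay above the vehicle arrays in both lines. The change was 0.48 in PR-A K388R cells (SE 0.19, limma adjusted p = 0.26) and 1.19 in WT PR-A cells (SE 0.19, 2.29-fold, limma adjusted p = 0.0026). PSPH, the last enzyme of serine synthesis, changed by -0.21 in PR-A K388R cells and 0.53 in WT PR-A cells (limma adjusted p = 0.12). PHGDH, the first enzyme of that pathway, changed by 0.41 in PR-A K388R cells (limma adjusted p = 0.096) and 0.16 in WT PR-A cells. CTH, which makes cysteine, changed by 0.31 in PR-A K388R cells and 0.38 in WT PR-A cells.

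The 6 measured cytosolic tRNA synthetases, AARS1, WARS1, NARS1, SARS1, TARS1 and EPRS1, had changes of 0.22 to 0.46 in WT PR-A cells, each positive and each below 1.5-fold. None was called in either line by limma or by the unmoderated contrasts. At an unadjusted p under 0.05 in limma, 0 of 6 passed in PR-A K388R cells, where all genes gave 9.74% higher and 6.79% lower. Of the 6, 4 passed in WT PR-A cells, all higher, where all genes gave 12.1% higher and 14% lower. These enzymes charge tRNAs with amino acids, and AARS1, NARS1 and TARS1 hold a CARE match. WARS1 had the lowest adjusted p of the group in WT PR-A cells (0.46, limma adjusted p = 0.012). The median was 0.06 in PR-A K388R cells and 0.28 in WT PR-A cells.

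STC2 and DDIT4, the remaining ATF4 targets, both rose in WT PR-A cells, and DDIT4 had the largest fold of the 29 members. STC2 (chr5:173314723-173328414) encodes the secreted glycoprotein stanniocalcin 2. It measured 7.84 and 7.54 in R5020-treated PR-A K388R cells, against 7.22 and 7.53 with vehicle. WT PR-A cells had 8.44 and 8.29 with R5020, against 7.18 and 7.25 with vehicle, and T47D-Y cells had 7.49 and 7.55. The treated WT PR-A arrays stood above the rest. The change was 0.31 in PR-A K388R cells (SE 0.13, limma adjusted p = 0.30) and 1.15 in WT PR-A cells (SE 0.13, 2.22-fold, limma adjusted p = 0.00044).

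DDIT4 (chr10:72273924-72276036), an inhibitor of mTORC1 signalling that is also known as a steroid hormone-induced gene, measured 11.50 and 10.99 in R5020-treated PR-A K388R cells, against 10.44 and 9.67 with vehicle. WT PR-A cells had 11.44 and 11.56 with R5020, against 9.27 and 9.84 with vehicle, and T47D-Y cells had 9.34 and 9.92. Treated and vehicle arrays were separate in both lines, and the treated arrays of the 2 lines overlapped. The change was 1.19 in PR-A K388R cells (SE 0.30, 2.27-fold, limma adjusted p = 0.077) and 1.94 in WT PR-A cells (SE 0.30, 3.84-fold, limma adjusted p = 0.0023).

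**Figure D2:**
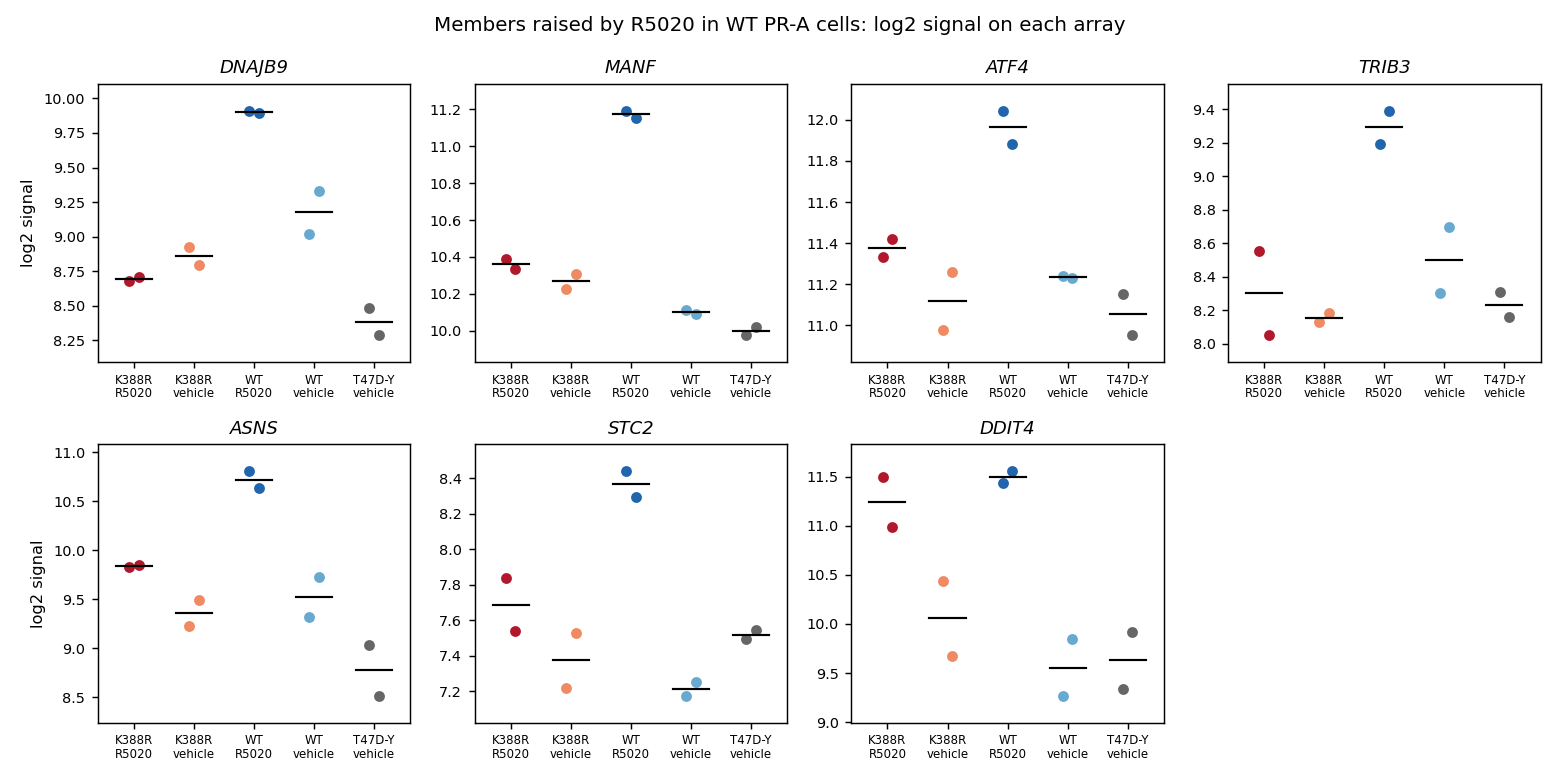
Log2 values on every array for the members raised by R5020 in WT PR-A cells, 1 panel a gene. Points are arrays, 2 per group. For MANF both R5020 arrays of WT PR-A cells (11.19 and 11.15) lie above all the others, while for DDIT4 the R5020 arrays of both lines lie above their vehicle arrays.

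Both lines responded to the hormone at established progestin targets. In PR-A K388R cells all 6 measured targets rose, against 1.45% of all genes, and in WT PR-A cells 5 of 6 rose, against 4.45%. The counts differ by ZBTB16, which was low on all arrays (3.44 to 4.37) and changed by 0.70 in PR-A K388R cells and 0.23 in WT PR-A cells. The median change of the 6 targets was 2.45 in PR-A K388R cells and 3.36 in WT PR-A cells. FKBP5, a steroid receptor co-chaperone, changed by 3.56 in PR-A K388R cells and 3.54 in WT PR-A cells. PDK4, a kinase that inhibits pyruvate dehydrogenase, rose less in PR-A K388R cells, by 1.34 against 3.18 in WT PR-A cells, and that difference of -1.84 was called with and without the block. The 0 calls among the stress genes of PR-A K388R cells thus stood beside called changes of these targets.

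The difference between the responses was tested directly, by subtracting the change in WT PR-A cells from the change in PR-A K388R cells. MANF, DNAJB9, DNAJC3 and STC2 had a lower response in PR-A K388R cells, and no member had a higher one. These are 4 of 29 members, against a background of 2.11% of all genes called lower and 1.98% called higher. The difference was -0.98 for MANF (SE 0.11, limma adjusted p = 0.0035), -0.89 for DNAJB9 (SE 0.17, adjusted p = 0.024), -0.74 for DNAJC3 (SE 0.14, adjusted p = 0.024) and -0.84 for STC2 (SE 0.19, adjusted p = 0.044). It was negative for 25 of 29 members, with a median of -0.26 against 0.02 for all genes. The deposited values had the replicate number removed, and the fit with that number as a block kept MANF alone (adjusted p = 0.015). With the block, 1.16% of all genes were called lower and 0.719% higher, and DNAJB9 had an adjusted p of 0.056, DNAJC3 of 0.068 and STC2 of 0.095.

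All 3 DNAJB9 probe sets were called in the difference (-0.80 to -0.89), and the other STC2 probe set gave -0.72 (limma adjusted p = 0.025). The remaining genes that rose in WT PR-A cells were not shown to respond differently. Their differences were -0.47 for ATF4 (block 95% interval -0.90 to -0.04, adjusted p = 0.20), -0.64 for TRIB3 (adjusted p = 0.24), -0.72 for ASNS (adjusted p = 0.21) and -0.76 for DDIT4 (block 95% interval -1.70 to 0.19, adjusted p = 0.43). Leaving out 1 array at a time kept the difference of MANF in all 8 cases, while DNAJB9, DNAJC3 and STC2 were each lost in 6 of 8, and the count of called members was 3 without the second PR-A K388R vehicle array and 1 or 2 without any other.

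**Figure D3:**
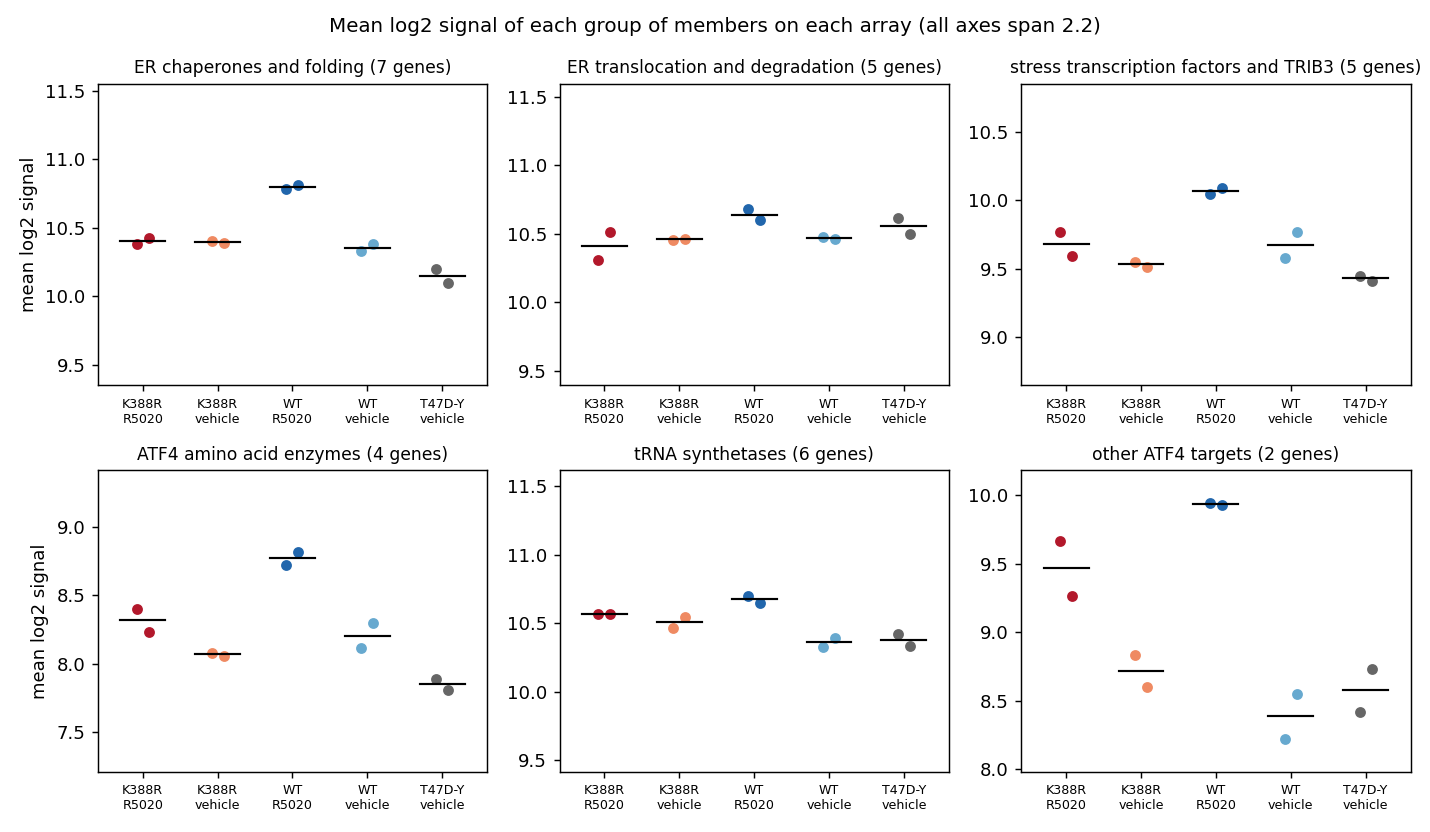
Mean log2 level of each role group on every array, with groups of samples along the axis and arrays as points. For ER chaperones and folding, R5020-treated WT PR-A cells lie at 10.78 and 10.81, against 10.33 and 10.38 with vehicle. For ER translocation and degradation their arrays (10.68 and 10.60) overlap those of T47D-Y cells (10.61 and 10.50).

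Without hormone, 5 members were called between lines, namely SEL1L, DNAJB9, ASNS, WARS1 and EDEM1. Against T47D-Y cells 3.45% of members were called in PR-A K388R cells and 10.3% in WT PR-A cells. Between the PR-A lines 6.9% were called. Each share, both directions together, was near that of all genes in the same comparison, given below by direction. ATF3 was past 1.5-fold but not the adjusted p against T47D-Y cells, with 0.63 in PR-A K388R cells (limma adjusted p = 0.072) and 0.61 in WT PR-A cells (limma adjusted p = 0.064). Both comparisons with T47D-Y cells share the T47D-Y arrays. SEL1L was lower in each PR-A line than in T47D-Y cells, at 9.74 and 9.83 in the PR-A K388R line and 9.70 and 9.69 in the WT PR-A line, against 10.57 and 10.63 in T47D-Y cells. The change was -0.82 in PR-A K388R cells (SE 0.11, limma adjusted p = 0.0029) and -0.91 in WT PR-A cells (SE 0.11, limma adjusted p = 0.00062). All 4 SEL1L probe sets were called in both lines. SEL1L was the 1 called member in PR-A K388R cells, where 1.52% of all genes were called higher and 2.96% lower. Without the first T47D-Y array WARS1 was also called higher there (0.59, limma adjusted p = 0.041).

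In WT PR-A cells DNAJB9 and ASNS were higher than in T47D-Y cells, 2 of 29 members beside 1 lower, with backgrounds of 4.66% higher and 4.14% lower. DNAJB9 measured 9.02 and 9.33, against 8.48 and 8.29 in T47D-Y cells (log2 change 0.79, SE 0.12, 1.73-fold, limma adjusted p = 0.0019). ASNS measured 9.32 and 9.73, against 9.04 and 8.52 in T47D-Y cells (log2 change 0.75, SE 0.19, limma adjusted p = 0.027). The ASNS call was lost without the second WT PR-A vehicle array (0.54, adjusted p = 0.18) or the second T47D-Y array (0.49, adjusted p = 0.17), leaving 1 member. The count was 4 without the first WT PR-A vehicle array, which added ATF3 (0.84) and PSPH (0.80), and 4 without the first T47D-Y array, which added DNAJC3 (0.60) and EDEM1 (0.66).

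Between the vehicle-treated lines WARS1 was higher and EDEM1 lower in PR-A K388R cells than in WT PR-A cells, with backgrounds of 3.59% higher and 5.94% lower. WARS1, the tryptophan enzyme and also a known interferon-induced gene, measured 10.58 and 10.63 in PR-A K388R cells, against 9.81 and 9.80 in WT PR-A cells (0.80, SE 0.10, limma adjusted p = 0.00057). T47D-Y cells lay between them at 10.16 and 10.02. EDEM1 measured 7.14 and 7.22 in PR-A K388R cells, against 8.02 and 7.97 in WT PR-A cells (-0.81, SE 0.12, limma adjusted p = 0.0022). T47D-Y cells again lay between, at 7.63 and 7.33. Other probe sets of 2 members gave a call that their representative did not, namely DNAJB9 (-0.89 against -0.32) and PSPH (-0.81 against -0.44). MANF and ATF4 did not pass the thresholds in any vehicle comparison, so their calls were limited to the WT PR-A response and, for MANF, to the difference.

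**Figure D4:**
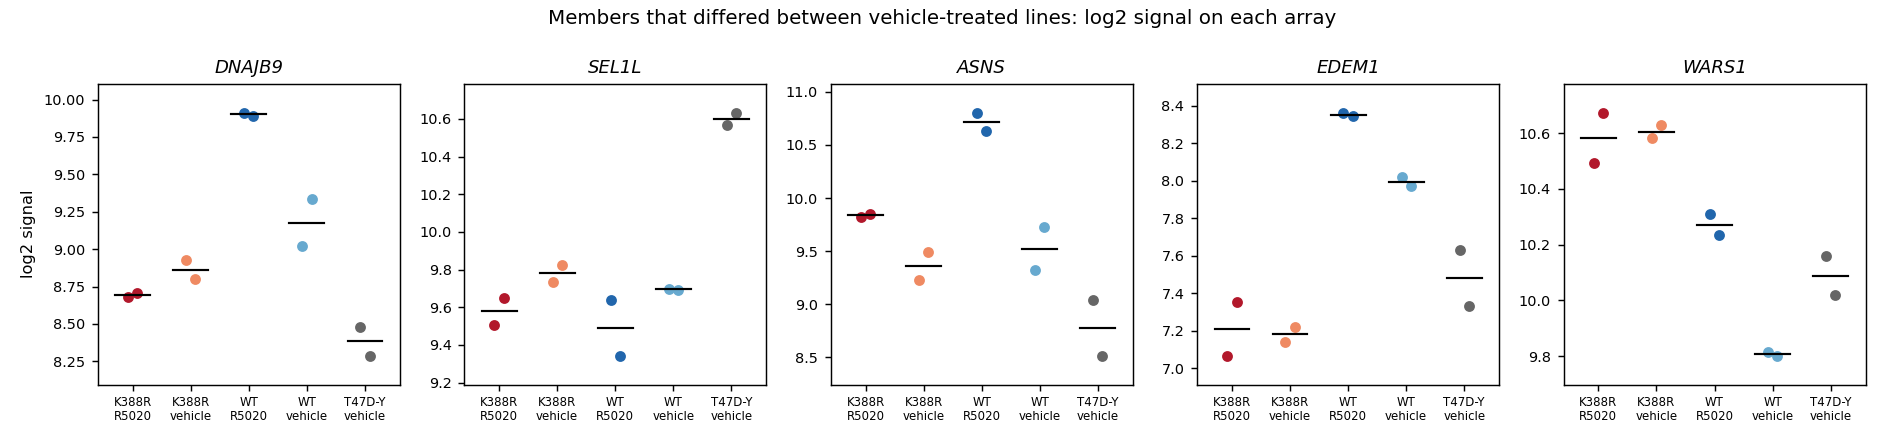
Log2 values on every array for the 5 members called between vehicle-treated lines. Points are arrays, 2 per group. SEL1L lies between 9.69 and 9.83 in the vehicle-treated PR-A lines, below the 10.57 and 10.63 of T47D-Y cells.

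Other genes of the same pathways were read from further lists, which were also chosen with earlier results of these data known. Amino acid transport and synthesis gave the most calls. Of its 9 measured genes of 26 listed, 5 rose in WT PR-A cells, where 4.45% of all genes were called higher. None was called in PR-A K388R cells, where 1.45% of all genes were called higher. There limma gave an unadjusted p under 0.05 for 3, all higher, against 9.74% of all genes. The median change was 0.16 in PR-A K388R cells and 0.88 in WT PR-A cells. SLC7A5 and SLC3A2 form the LAT1 exchanger of large neutral amino acids. SLC7A5 measured 9.68 and 9.79 in R5020-treated PR-A K388R cells, against 9.09 and 9.47 with vehicle, and 11.24 and 11.13 in R5020-treated WT PR-A cells, against 9.65 and 9.61 with vehicle. Its change was 0.46 in PR-A K388R cells and 1.55 in WT PR-A cells (limma adjusted p = 0.00013). SLC3A2 changed by 0.42 and SLC43A1, another transporter of neutral amino acids, by 0.88 in PR-A K388R cells, against 1.09 and 1.88 in WT PR-A cells. In the difference SLC7A5, SLC3A2 and PCK2, the mitochondrial phosphoenolpyruvate carboxykinase, were called lower in PR-A K388R cells, against 2.11% of all genes. SLC7A5 alone remained with the replicate block (-1.09, adjusted p = 0.0497), where 1.16% of all genes were called lower. Among vehicle-treated cells, 2 of the 9 were called higher with WT PR-A than without PR, against 4.66% of all genes. For PR-A K388R against no PR, 1 was called higher, against 1.52%.

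Of 22 listed UPR sensors and signalling genes 8 were measured, and 1 of them, CEBPG, rose in WT PR-A cells, against 4.45% of all genes called higher. ERN1 (IRE1), EIF2AK3 (PERK), HSPA5 (BiP) and DDIT3 (CHOP) had no matched probe set and were not analysed here. CEBPG, a dimer partner of ATF4, measured 7.70 and 7.50 in R5020-treated PR-A K388R cells, against 7.23 and 7.49 with vehicle, and 9.18 and 9.19 in R5020-treated WT PR-A cells, against 7.61 and 7.84 with vehicle. The change was 0.24 in PR-A K388R cells and 1.46 in WT PR-A cells (limma adjusted p = 0.00013), and the difference of -1.22 was called with the block as well (adjusted p = 0.028). Between vehicle-treated lines, EIF2AK2, the double-stranded RNA-activated eIF2 kinase, was lower in PR-A K388R than in WT PR-A cells (-1.32, limma adjusted p = 0.0084). PPP1R15A, which recruits the phosphatase that reverses eIF2 phosphorylation, was also lower (-0.73, limma adjusted p = 0.0017). In that comparison 5.94% of all genes were called lower.

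Of 10 further genes of ER translocation and degradation 1, SEC62, rose in WT PR-A cells, against 4.45% of all genes called higher. SEC62 is a translocation factor of the ER membrane. It averaged 8.04 in R5020-treated PR-A K388R cells, against 8.20 with vehicle, and 8.73 in R5020-treated WT PR-A cells, against 7.68 with vehicle. The change was -0.16 in PR-A K388R cells and 1.05 in WT PR-A cells (limma adjusted p = 6.7e-05), with a difference of -1.21 (limma adjusted p = 0.0024). CARS1 rose in WT PR-A cells (0.59, limma adjusted p = 0.0054) and changed by 0.02 in PR-A K388R cells. It was the 1 called gene of 8 further genes of cytosolic tRNA charging, which include the scaffold protein AIMP1, against the same 4.45%. With R5020, none of 6 other ER folding factors was called in either line by limma, and 0 had an unadjusted p under 0.05. Among vehicle-treated cells UGGT2, 1 of these 6, was called. Its mean was 7.70 with WT PR-A, 7.05 with PR-A K388R and 6.68 without PR. The called changes were 1.02 for WT PR-A against no PR and -0.66 for PR-A K388R against WT PR-A. The 6 mitochondrial tRNA synthetases, which do not serve the cytosolic pool, had medians of -0.09 in PR-A K388R cells and -0.07 in WT PR-A cells with no call, and limma gave an unadjusted p under 0.05 for 0 in PR-A K388R cells and 2, both lower, in WT PR-A cells, where 14% of all genes were lower.

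**Figure D5:**
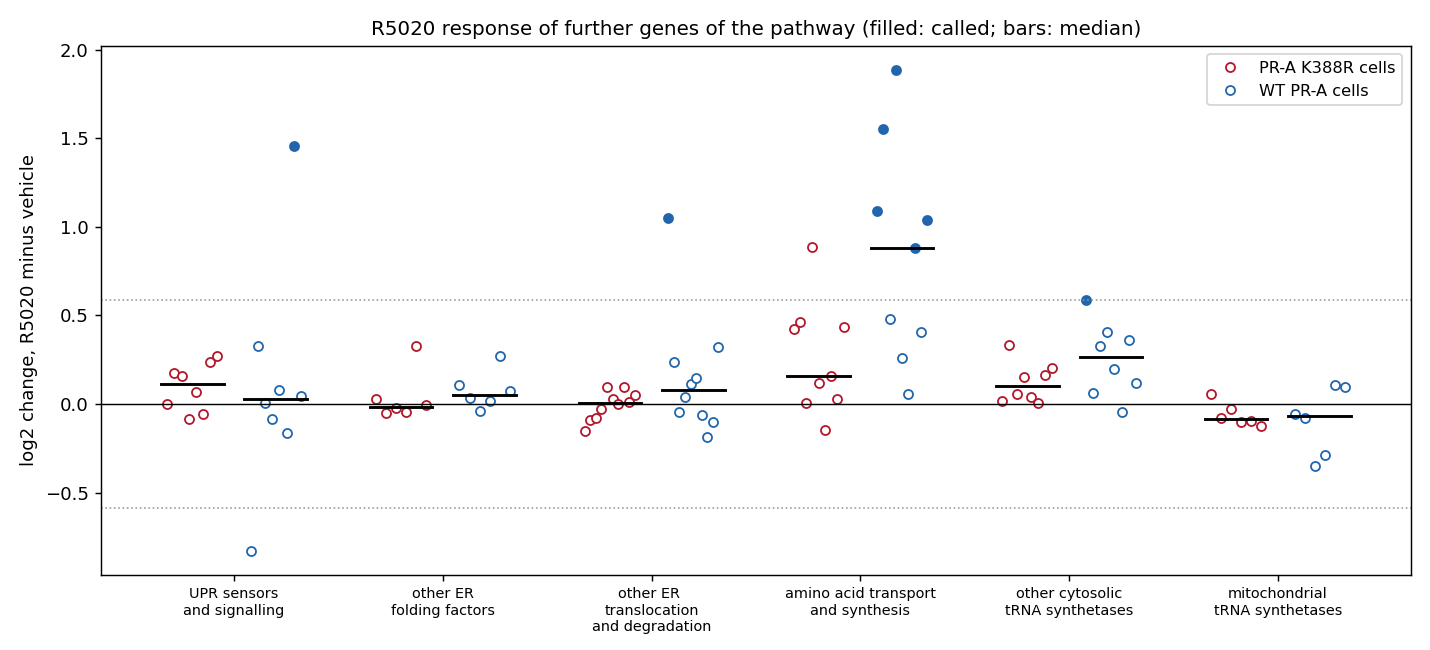
Log2 change with R5020 (R5020 minus vehicle) of the further genes of the pathway by list, with PR-A K388R cells left of WT PR-A cells. Filled points were called and bars are medians, which for amino acid transport and synthesis are 0.16 in PR-A K388R cells and 0.88 in WT PR-A cells.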

How the data were processed

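The authors hybridised RNA to Affymetrix U133 Plus 2 arrays and deposited log2 values that they had normalized in Partek; the background correction and normalization method are not given in the sources used here. The table held 16376 probe sets, of which 12547 had 1 gene symbol, 457 had several and 3372 had none, and symbols were updated through RefSeq (GRCh38.p14). The deposited log2 values had the replicate number removed. Over the 5 groups, replicate 2 minus replicate 1 summed to 0 within 3e-04 for every probe set, whereas exchanging the replicates of 1 group gave median absolute sums of 0.228 to 0.255. A check of pairing is therefore void, since the removal forces deviations to sum to 0. The fit without the block counts 5 residual degrees of freedom where 4 are independent, so its p-values are too small.

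All 10 arrays were fitted together in limma 3.58.1 (R 4.3.3) with 5 group means and no block, and 6 contrasts were tested with moderated statistics, two-sided. Calls required an adjusted p under 0.05 over all probe sets and 1.5-fold. Genes are represented by the probe set with the highest mean. The alternatives were the replicate block (4 residual degrees of freedom), unmoderated analysis of variance contrasts, quantile normalization, median centring, leaving out the 40% dimmest probe sets, the probe set with the largest variance, the compared groups alone and leaving out each array. The fit was tested on simulated data. Members and lists were chosen with earlier results of these data known. Up to 3 called genes of each further list and comparison, those with the smallest adjusted p, could be named. Motifs were searched in RefSeq promoter windows with Python 3.11.15. T47D-Y cells given R5020 are not analysed here.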

Additional observations from a re-analysis of the deposited data

Results flagged for a closer look

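The R5020 responses of the 2 PR-A lines differed for 4 members by the test of the difference itself (PR-A K388R minus WT PR-A, limma). The difference was -0.98 for MANF, -0.89 for DNAJB9, -0.74 for DNAJC3 and -0.84 for STC2 on the log2 scale. MANF alone was called with the replicate number as a block and without each array in turn. For DNAJC3 the response was -0.30 in PR-A K388R cells and 0.44 in WT PR-A cells, and neither reached 1.5-fold.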

How the results depend on the processing

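With 2 arrays per group, small changes of members could not be resolved. No result reversed. When the replicate number was blocked, the count of members with a lower response in PR-A K388R cells was 1, against 4 without it, and 171 of 174 member values kept their call, the exceptions being DNAJB9, DNAJC3 and STC2 in the difference. Unmoderated analysis of variance contrasts also gave 1 there, and 1 member, against 2, above T47D-Y cells in vehicle-treated WT PR-A cells. They lost DDIT4 (adjusted p = 0.051) and TRIB3 (adjusted p = 0.11) in the WT PR-A response. Quantile normalization gave 1 member, ATF3 (0.72, adjusted p = 0.048), against 0, higher in vehicle-treated PR-A K388R than T47D-Y cells, and STC2 was lost in the difference (adjusted p = 0.061). Taking the probe set with the largest variance gave 3 members, against 1, lower in vehicle-treated PR-A K388R than WT PR-A cells, adding DNAJB9 and PSPH. Median centring and leaving out the dimmest probe sets kept all 174 calls, and fitting the compared groups alone kept all 145 to which it applied. Leaving out 1 array at a time, with the lone array assumed to vary like the other groups, the counts ran from 5 to 7 higher in the WT PR-A response, 1 to 3 lower in the difference, 1 to 4 higher and 1 to 1 lower in WT PR-A against T47D-Y cells, 0 to 1 higher and 1 to 1 lower in PR-A K388R against T47D-Y cells, and 1 to 1 in each direction between the vehicle-treated PR-A lines. The causes were not tested.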
